A study of Mus musculus with 9 samples.

Results

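A set of 10 members of the TNF receptor superfamily were followed across the parental mouse colon carcinoma line MC38-P and its liver-selected derivatives MC38-LM3a and MC38-LM3b. They were Tnfrsf26, Tnfrsf22, Tnfrsf23, Tnfrsf1a, Tnfrsf1b, Tnfrsf10b, Tnfrsf12a, Tnfrsf21, Fas and Ltbr, and they were picked by symbol, so that 10 of the 16399 listed genes entered the description. Tnfrsf26 led to the choice because it was already known to be among the strongest rises in both derivatives, and the other members were added as relatives. The values of the members against MC38-P are therefore given as a description without a test. Of the 10 members, 8 reached 1 TPM or more in 3 or more libraries (TPM is a level scaled for transcript length and for the size of the library) and entered the fit of 11287 genes, while Tnfrsf21 and Fas did not.

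MC38 is an established colon carcinoma line of C57BL/6 mice, here labelled with GFP and firefly luciferase in every group. The derivatives came from liver lesions that formed after injection of cells into the spleen of immunocompetent C57BL/6 mice, and both went through 3 rounds of such selection. MC38-P is the line before selection, and MC38-LM3a and MC38-LM3b were established independently of each other, each as a single line. Poly(A) RNA of cultured cells, without any further treatment, was sequenced in 3 biological replicates of each line, so the replicates carry the spread within a line and not the spread between independently selected lines.

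The labels give colon epithelium as the cell type. Krt8 and Krt18, the keratins of simple epithelia, stood at 744 to 1206 TPM and 707 to 981 TPM over the 9 libraries, whereas Cdh1, the epithelial cadherin, reached at most 0.08 TPM and Vil1, the microvillus protein villin, at most 0.13 TPM. Of 12 epithelial markers 6 reached 1 TPM in any library, and their summed level was 2004 to 2319 TPM in MC38-P, 1592 to 1812 TPM in MC38-LM3a and 1585 to 1630 TPM in MC38-LM3b. The listed markers of hematopoietic cells, T cells and hepatocytes summed to at most 0.46, 0.18 and 0.89 TPM in any library, with Ptprc at no more than 0.09 TPM and Alb at no more than 0.29 TPM. Values were given for 3 of 5 hematopoietic, 1 of 6 T cell (Cd8a), 5 of 6 hepatocyte and 3 of 8 macrophage markers. The macrophage list stood at 38.8 to 40.2 TPM in MC38-P, 48.7 to 53.7 TPM in MC38-LM3a and 55.4 to 59.96 TPM in MC38-LM3b, nearly all from Cd68 and Cd14, while Csf1r stayed at or below 0.14 TPM, and the part of these shifts in the levels of the receptors was not tested. Stellate and fibroblast markers summed to 13.3 to 19.98, 6.16 to 8.55 and 9.33 to 9.55 TPM, and endothelial markers to at most 2.07 TPM. Within the stellate and fibroblast list the genes moved both ways. Col1a1 stood at 10.4 to 16.0 TPM in MC38-P, 3.52 to 5.03 TPM in MC38-LM3a and 4.17 to 4.44 TPM in MC38-LM3b. Pdgfrb stood at 1.15 to 1.74, 1.69 to 2.42 and 3.48 to 3.80 TPM. In bulk RNA, fewer cells that express a gene and less RNA per cell cannot be told apart.

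Some libraries departed from their own replicates along gene length. Across 11096 genes, the difference of a library from the mean of the other replicates of its line had a Spearman correlation with transcript length of -0.62 in replicate 3 of MC38-P and 0.64 in replicate 3 of MC38-LM3a. The other replicates of these lines had the opposite sign (0.51 and 0.41 in MC38-P, -0.55 and -0.51 in MC38-LM3a), and the MC38-LM3b libraries lay between -0.01 and 0.02. Because each library is set against its own replicates, a drift in any of them pulls the others to the opposite sign. These signs are therefore no separate observation. The part of length in each result was not tested, but values corrected for transcript length and GC content, and values without replicate 3 of both lines, are given beside many of the results they move.

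Receptors of this superfamily sit in the cell membrane and are engaged by trimeric ligands, after which clustered receptors recruit adaptors from the cytosol. Receptors with a death domain (Tnfrsf1a, Tnfrsf10b, Tnfrsf21 and Fas) can recruit FADD or TRADD and start caspase-dependent or necroptotic death, while Tnfrsf1b, Tnfrsf12a and Ltbr carry no death domain and bind TRAF proteins that lead to NF-kB. Tnfrsf22 and Tnfrsf23 are mouse receptors without a death domain that bind TRAIL (Tnfsf10) as decoys, and Tnfrsf26 is their neighbour and relative on chromosome 7, for which no ligand is generally agreed on.

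These 3 genes form a cluster on the minus strand of chromosome 7. In the GENCODE M21 annotation, which uses the GRCm38 build, Tnfrsf26 spans chr7:143607659-143628722, Tnfrsf22 chr7:143634806-143649661 and Tnfrsf23 chr7:143665809-143685872. Their coding parts are 612, 594 and 528 bases long. Since reads can be shared between close copies, the coding parts were compared before the levels were read. Tnfrsf22 and Tnfrsf23 were 90.7% identical over 528 aligned bases, with a longest shared run of 102 bases, whereas Tnfrsf26 was 62.5% identical to Tnfrsf22 and 60.8% identical to Tnfrsf23, with no shared run above 10 bases. That 102-base run is given here from each gene, 5′ to 3′ on the coding strand, beside the 101 aligned bases of Tnfrsf26, of which 61 match. Capitals mark bases of Tnfrsf26 that differ from Tnfrsf22.
Tnfrsf22, coding bases 421 to 522: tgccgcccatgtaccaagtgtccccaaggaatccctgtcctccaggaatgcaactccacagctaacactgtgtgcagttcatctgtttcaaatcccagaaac
Tnfrsf23, coding bases 391 to 492: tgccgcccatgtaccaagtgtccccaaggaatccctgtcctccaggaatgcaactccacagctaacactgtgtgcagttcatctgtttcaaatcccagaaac
Tnfrsf26, coding bases 358 to 458: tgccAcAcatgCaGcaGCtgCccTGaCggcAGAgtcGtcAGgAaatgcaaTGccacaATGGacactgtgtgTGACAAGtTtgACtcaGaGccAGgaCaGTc

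Over whole transcripts, none of the 3168 distinct 50-base words of Tnfrsf26 occurred in Tnfrsf22 or Tnfrsf23, and 60 occurred in other annotated genes. In contrast, Tnfrsf22 and Tnfrsf23 shared 719 words, which is 17.3% of the 4147 words of Tnfrsf22 and 18.0% of the 3993 words of Tnfrsf23. A further 434 words of Tnfrsf22 occurred in genes outside the cluster. The split of reads between Tnfrsf22 and Tnfrsf23 is therefore uncertain, while no stretch of that length in Tnfrsf26 matches the annotated transcripts of either one.

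Tnfrsf26 was nearly silent in the parental line and among the well expressed receptors in both derivatives. It stood at 2.04, 2.34 and 1.15 TPM in MC38-P, at 33.8, 35.8 and 47.3 TPM in MC38-LM3a and at 56.5, 59.3 and 58.8 TPM in MC38-LM3b. The groups did not overlap in any pairing, and the lowest derivative library lay far above the highest parental one. Mean levels were 1.84 ± 0.62, 39.0 ± 7.3 and 58.2 ± 1.5 TPM (SD, n = 3), a ratio to MC38-P of 21.1 for MC38-LM3a and 31.6 for MC38-LM3b. On the log2(TPM + 1) scale, which understates changes of low genes, the differences from MC38-P were 3.82 and 4.41 with an SE of 0.17, which ranked 3 and 2 among the 11287 tested genes. They were 3.78 and 4.19 after correction for length and GC content, and 3.49 and 4.22 without replicate 3 of MC38-P and of MC38-LM3a.

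**Figure D1:**
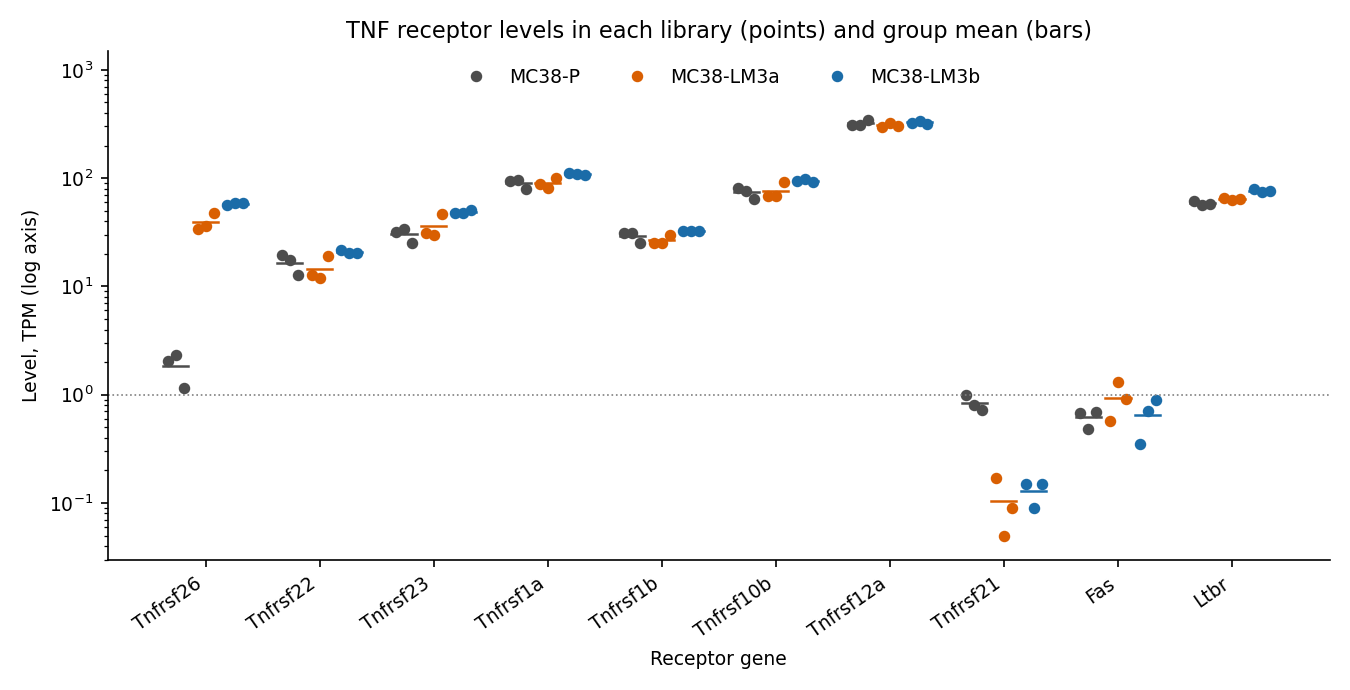
Level in TPM on a log axis of each of the 10 receptors in each of the 9 libraries (points, colored by line; replicates 1 to 3 from left to right) with the group mean as a short bar; the dotted line marks 1 TPM. Tnfrsf26 moves from 1.15 to 2.34 TPM in MC38-P to 56.5 to 59.3 TPM in MC38-LM3b, while Tnfrsf12a stays between 295 and 341 TPM in every library.

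The neighbouring decoy receptors did not follow Tnfrsf26 in size. Tnfrsf22 was at 19.7, 17.4 and 12.7 TPM in MC38-P, at 12.7, 11.9 and 19.0 TPM in MC38-LM3a and at 21.9, 20.4 and 20.4 TPM in MC38-LM3b. Its MC38-LM3a values overlapped those of MC38-P, and only the MC38-LM3b libraries lay above both other lines, by a log2 difference from MC38-P of 0.33 (SE 0.18) that was 0.12 after correction. Without replicate 3 of both lines it was 0.17. In MC38-LM3a the difference was -0.19, and -0.55 without those libraries. Tnfrsf23 was at 31.7, 33.9 and 25.4 TPM in MC38-P, at 31.3, 30.0 and 46.5 TPM in MC38-LM3a and at 47.9, 48.0 and 50.6 TPM in MC38-LM3b. The value of 46.5 TPM came from replicate 3 of MC38-LM3a, and the other 2 replicates of that line lay within the range of MC38-P. Its differences from MC38-P were 0.22 for MC38-LM3a and 0.68 for MC38-LM3b (SE 0.16), which became 0.20 and 0.48 after correction. Without replicate 3 of both lines the MC38-LM3a difference was -0.10.

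Taken as a sum, the cluster went from 39.2 to 53.6 TPM in MC38-P to 77.7 to 113 TPM in MC38-LM3a and 126 to 130 TPM in MC38-LM3b. The share of Tnfrsf26 in that sum was 2.93% to 4.37% in MC38-P, 42.0% to 46.1% for MC38-LM3a and 44.7% to 46.5% for MC38-LM3b. Tnfrsf26 thus went from the least to the most abundant of the 3 in mean level in both derivatives, although its range overlapped that of Tnfrsf23 in MC38-LM3a. The ratio of Tnfrsf23 to Tnfrsf22, which reads shared by these copies could move, was 1.61 to 1.99 in MC38-P, 2.45 to 2.51 for MC38-LM3a and 2.19 to 2.48 for MC38-LM3b.

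**Figure D2:**
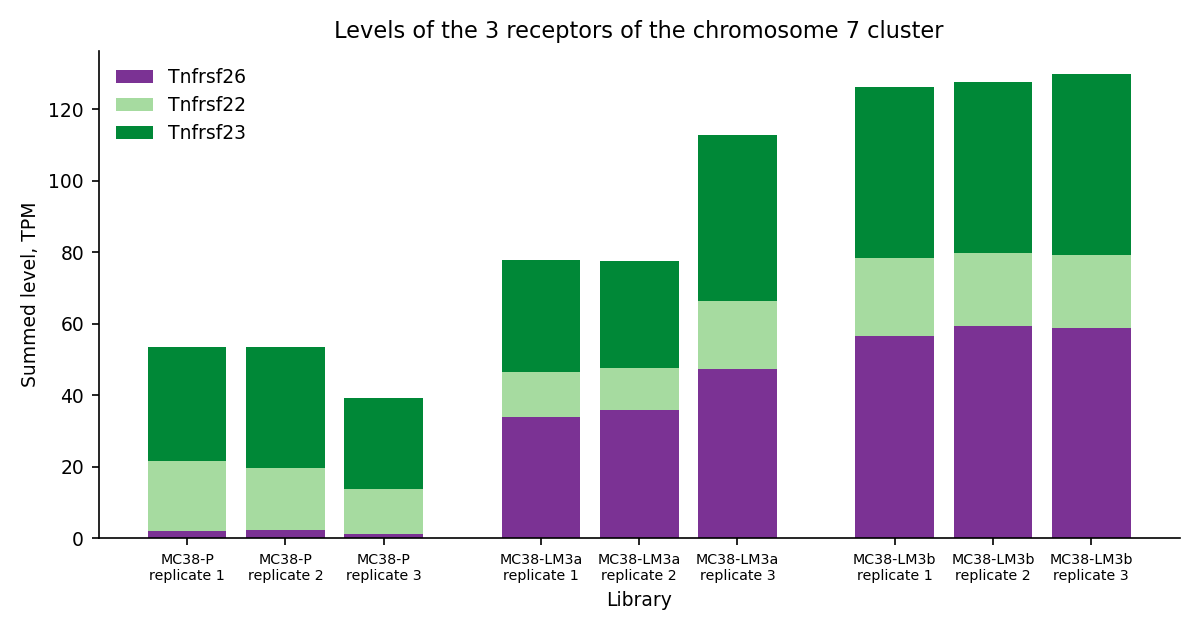
Summed level in TPM of Tnfrsf26, Tnfrsf22 and Tnfrsf23 in each library, stacked from 0, with libraries grouped by line. The Tnfrsf26 segment is 2.93% to 4.37% of the bar in MC38-P and 42.0% or more in every derivative library.

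The well expressed receptors with a death domain, Tnfrsf1a and Tnfrsf10b, differed much less between the lines than Tnfrsf26. Tnfrsf1a, the widely expressed receptor for TNF, was at 93.3, 97.1 and 78.9 TPM in MC38-P, at 87.8, 81.0 and 99.5 TPM in MC38-LM3a and at 112, 108 and 106 TPM in MC38-LM3b. MC38-LM3a spanned the same values as MC38-P (log2 difference -0.00, SE 0.09), and the MC38-LM3b libraries lay above all others (0.28, or 0.17 after correction). Without replicate 3 of both lines the differences were -0.17 and 0.19. Tnfrsf10b, the only mouse TRAIL receptor with a death domain, was at 81.5, 76.7 and 64.1 TPM in MC38-P, at 68.9, 68.5 and 92.7 TPM in MC38-LM3a and at 93.8, 97.8 and 92.8 TPM in MC38-LM3b. Again MC38-LM3a overlapped MC38-P (0.04, SE 0.12) while MC38-LM3b was higher (0.36, or 0.17 after correction). The MC38-LM3a difference turned to -0.10 without its replicate 3 and to -0.20 without replicate 3 of both lines. As for Tnfrsf23, replicate 3 of MC38-LM3a stood highest in its line, just below the lowest MC38-LM3b library.

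Fas, the receptor for Fas ligand, was barely detected. It was at 0.68, 0.48 and 0.69 TPM in MC38-P, at 0.57, 1.30 and 0.91 TPM in MC38-LM3a and at 0.35, 0.71 and 0.90 TPM in MC38-LM3b, with all groups overlapping. Tnfrsf21, also called death receptor 6, was at 0.99, 0.81 and 0.72 TPM in MC38-P, at 0.17, 0.05 and 0.09 TPM in MC38-LM3a and at 0.15, 0.09 and 0.15 TPM in MC38-LM3b. All 6 derivative libraries lay below the parental ones, at ratios of means of 0.123 and 0.155, but the gene never reached 1 TPM and entered no fit. As the files hold no counts, the number of reads behind such low values is unknown.

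Among the receptors that signal through TRAF proteins, Tnfrsf12a, the receptor for TWEAK (Tnfsf12), was the most abundant member by a wide margin. It was at 307, 311 and 341 TPM in MC38-P, at 295, 324 and 304 TPM in MC38-LM3a and at 325, 339 and 316 TPM in MC38-LM3b. All groups overlapped, and the log2 differences from MC38-P were -0.06 and 0.03 with an SE of 0.06. It made up 41.9% to 56.1% of the summed level of the 10 members in a library. Ltbr, the lymphotoxin beta receptor, was at 61.7, 57.0 and 57.5 TPM in MC38-P, at 65.0, 62.8 and 64.7 TPM in MC38-LM3a and at 78.6, 74.9 and 76.4 TPM in MC38-LM3b. It was the only member besides Tnfrsf26 with all MC38-LM3a libraries above all MC38-P libraries, with differences from MC38-P of 0.13 and 0.38 (SE 0.06) that were 0.22 and 0.32 after correction. Tnfrsf1b, the receptor for TNF that lacks a death domain, was at 31.0, 31.1 and 24.9 TPM in MC38-P, at 25.0, 25.2 and 29.6 TPM in MC38-LM3a and at 32.6, 32.4 and 32.3 TPM in MC38-LM3b. MC38-LM3a overlapped MC38-P (-0.12, SE 0.11), and the small excess of MC38-LM3b (0.16) was -0.03 after correction. Without replicate 3 of both lines these differences were -0.30 and 0.06.

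TPM values are scaled for transcript length, so levels can be ordered between genes. In MC38-P the order of mean levels was Tnfrsf12a (320 TPM), Tnfrsf1a (89.7), Tnfrsf10b (74.1), Ltbr (58.8), Tnfrsf23 (30.3), Tnfrsf1b (29.0), Tnfrsf22 (16.6), Tnfrsf26 (1.84), Tnfrsf21 (0.84) and Fas (0.62). The ranges of Tnfrsf1a and Tnfrsf10b overlapped, and so did those of Tnfrsf23 and Tnfrsf1b. In both derivatives Tnfrsf26 stood at rank 5, between Ltbr and Tnfrsf23, and Fas passed Tnfrsf21, while the order of the other 7 members was kept. Neighbours in that order overlapped in MC38-LM3a for Tnfrsf1a with Tnfrsf10b and for Tnfrsf26 with Tnfrsf23, and for no pair in MC38-LM3b.

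By the thresholds for a DEG used in the study (adjusted p-value under 0.05 and absolute log2 fold change above 1), 1 of the 8 fitted members, Tnfrsf26, was past both in each derivative, beside 2.89% (MC38-LM3a) and 3.93% (MC38-LM3b) of all tested genes. With the adjusted p-value alone, 1 member was higher for MC38-LM3a and 5 for MC38-LM3b and none was lower, beside 14.1% and 35.6% of all genes higher and 13.8% and 11.2% lower. After correction for length and GC content these counts were 2 and 5 higher, beside 26.5% and 29.3% of genes higher and 24.6% and 28.3% lower. Since these comparisons led to the choice of the members, the counts describe them only. All libraries of MC38-LM3a lay above all of MC38-P for 2 of the 10 members, beside 20.3% of tested genes, and below for 1, Tnfrsf21, beside 15.9% of tested genes. All libraries of MC38-LM3b lay above MC38-P for 7 members, beside 51.3% of tested genes, and below for the same 1, beside 15.4%. Tnfrsf21 is itself not among the tested genes. The median difference of the 8 fitted members was 0.02 for MC38-LM3a and 0.35 for MC38-LM3b, while that of all tested genes was -0.00 and 0.21. After correction the medians were 0.01 and 0.17 for the members and 0.01 in both comparisons for all genes. Median centring, which sets the libraries to the same median over tested genes, lowered the MC38-LM3b difference of every gene by 0.22 and left those of MC38-LM3a within 0.01 of the deposited ones. Under it the MC38-LM3b differences were 4.18 for Tnfrsf26, 0.46 for Tnfrsf23, 0.16 for Ltbr, 0.13 for Tnfrsf10b, 0.11 for Tnfrsf22 and 0.06 for Tnfrsf1a. Tnfrsf1b and Tnfrsf12a turned direction there, to -0.06 and -0.19, and so they did with quantile normalization (-0.06 and -0.03). The same 0.22 applies to the MC38-LM3b differences of the neighbours and pathway genes given below.

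**Figure D3:**
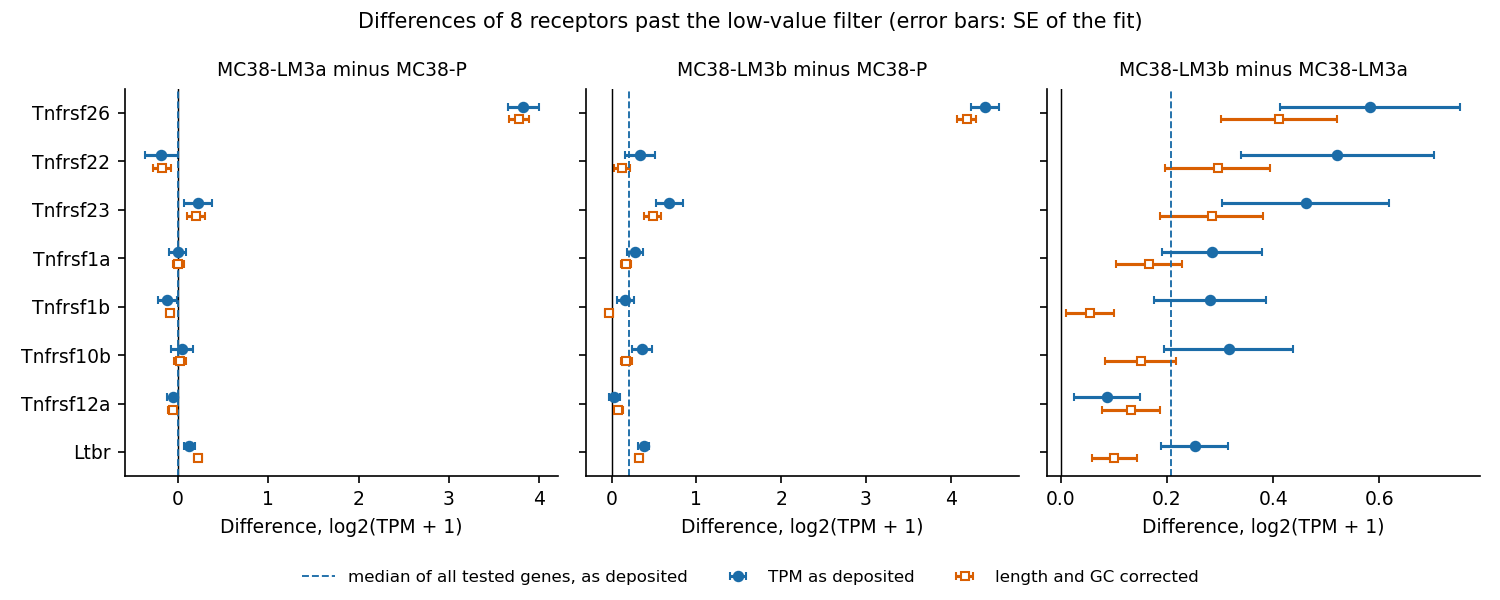
Differences on the log2(TPM + 1) scale (x axis) of the 8 fitted receptors for each pair of lines, as deposited (filled circles) and after correction for length and GC content (open squares); error bars are the SE of the fit and the dashed line is the median of all tested genes as deposited. Tnfrsf26 stands at 3.82 and 4.41 against MC38-P, and every other receptor lies between -0.19 and 0.68.

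The derivatives were then compared with each other. The rise over MC38-P that led to the choice is a different comparison, though the members were chosen with earlier results of these data known. All 8 fitted members had a higher mean in MC38-LM3b, with log2 differences between 0.09 and 0.58, but none passed the adjusted threshold. Tnfrsf26 was higher by 0.58 (95% interval 0.21 to 0.96; limma, adjusted p = 0.119), Tnfrsf22 by 0.52 (0.12 to 0.92), Tnfrsf23 by 0.46 (0.11 to 0.81), Tnfrsf10b by 0.32 (0.05 to 0.59), Tnfrsf1a by 0.28 (0.08 to 0.49), Tnfrsf1b by 0.28 (0.05 to 0.51) and Ltbr by 0.25 (0.11 to 0.39). These 7 members shared the adjusted p-value of 0.119, and Tnfrsf12a differed by 0.09 (-0.05 to 0.22) with an adjusted p of 0.278. At an unadjusted p under 0.05, 7 of the 8 were called, all higher in MC38-LM3b, beside 35.5% of all tested genes called higher, and the median of all tested genes was 0.21 in the same direction. Median centring lowered each of these differences by 0.22. They were then 0.36 for Tnfrsf26, 0.30 for Tnfrsf22, 0.24 for Tnfrsf23 and 0.09 for Tnfrsf10b. Tnfrsf1a and Tnfrsf1b stood at 0.06 each, Ltbr at 0.03 and Tnfrsf12a at -0.13.

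This comparison turned on 1 library. Over all genes, 6 of 11287 were called by the adjusted p-value (0.0532%), whereas 6351 were called without replicate 3 of MC38-LM3a. Without that library the same 7 members passed the threshold, beside 52.2% of all genes called higher, with Tnfrsf26 higher by 0.73 (limma, adjusted p = 0.00444) and Ltbr by 0.26 (adjusted p = 0.00958). After correction for length and GC content with all libraries in, the differences were smaller for 7 members, at 0.41 for Tnfrsf26 (adjusted p = 0.119) and 0.06 to 0.30 for the other 6, and larger for Tnfrsf12a at 0.13, and none was called. Every MC38-LM3b library lay above every MC38-LM3a library for 7 members, beside 38.4% of all tested genes.

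The genes around the cluster were examined next, since the receptors lie in a region with imprinted genes. Within 500 kb of the RefSeq start of Tnfrsf26, 14 other genes besides it were listed, of which 9 were fitted, including Tnfrsf22 and Tnfrsf23. Phlda2, an imprinted gene known to restrain placental growth, fell from 55.5, 60.4 and 59.1 TPM in MC38-P to 13.6, 12.3 and 13.5 TPM in MC38-LM3a and 8.26, 9.87 and 14.7 TPM in MC38-LM3b. The groups of both derivatives lay well below the parental one, with log2 differences of -2.07 (limma, adjusted p = 9.48e-06) and -2.35 (adjusted p = 3.01e-06). Osbpl5, which encodes an oxysterol-binding protein family member, rose from 11.1, 11.1 and 10.3 TPM to 17.2, 17.4 and 20.01 TPM in MC38-LM3a and 22.2, 24.0 and 20.98 TPM in MC38-LM3b, by 0.70 (adjusted p = 0.000496) and 0.98 (adjusted p = 4.25e-05). Both genes were called under every alternative that was run.

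Mrgpre, an orphan G protein-coupled receptor gene, was at 1.68 to 2.39 TPM in MC38-P, 3.06 to 3.45 TPM in MC38-LM3a and 3.56 to 4.65 TPM in MC38-LM3b, and rose by 0.48 (limma, adjusted p = 0.0178) and 0.75 (adjusted p = 0.00114). The MC38-LM3a call was lost without replicate 2 of MC38-P and without replicate 2 of MC38-LM3a, at an adjusted p of at most 0.0597. Nadsyn1, which makes NAD, rose in MC38-LM3b (0.54, adjusted p = 0.0194) and differed by -0.03 in MC38-LM3a (adjusted p = 0.913). Between the derivatives it differed by 0.57 (adjusted p = 0.119), and its MC38-LM3b call was lost without replicate 2 or 3 of MC38-P or of MC38-LM3b, at 0.0519 to 0.07. Between Phlda2 and Tnfrsf26 lie Nap1l4, a histone chaperone, and Cars, the cysteinyl-tRNA synthetase. Neither passed the threshold in either derivative, with differences between -0.11 and 0.10, in the values as deposited. After correction for length and GC content Cars was lower in MC38-LM3b (-0.26, adjusted p = 0.000215), and without replicate 3 of both lines Cars (-0.22, adjusted p = 0.00174) and Nap1l4 (-0.11, adjusted p = 0.0318) were lower in MC38-LM3a and Cars in MC38-LM3b (-0.15, adjusted p = 0.0105). Dhcr7, which makes cholesterol in its last step, differed by -0.15 and 0.06 and was not called in either derivative, though it was lower in MC38-LM3b under median centring (-0.16, adjusted p = 0.0499) and, without MC38-P replicate 3, in MC38-LM3a (-0.27, adjusted p = 0.0389), as it was without replicate 3 of both lines (-0.33, adjusted p = 0.000675). Its MC38-LM3b difference was -0.06 in both of these fits without replicate 3 and -0.09 after correction.

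**Figure D4:**
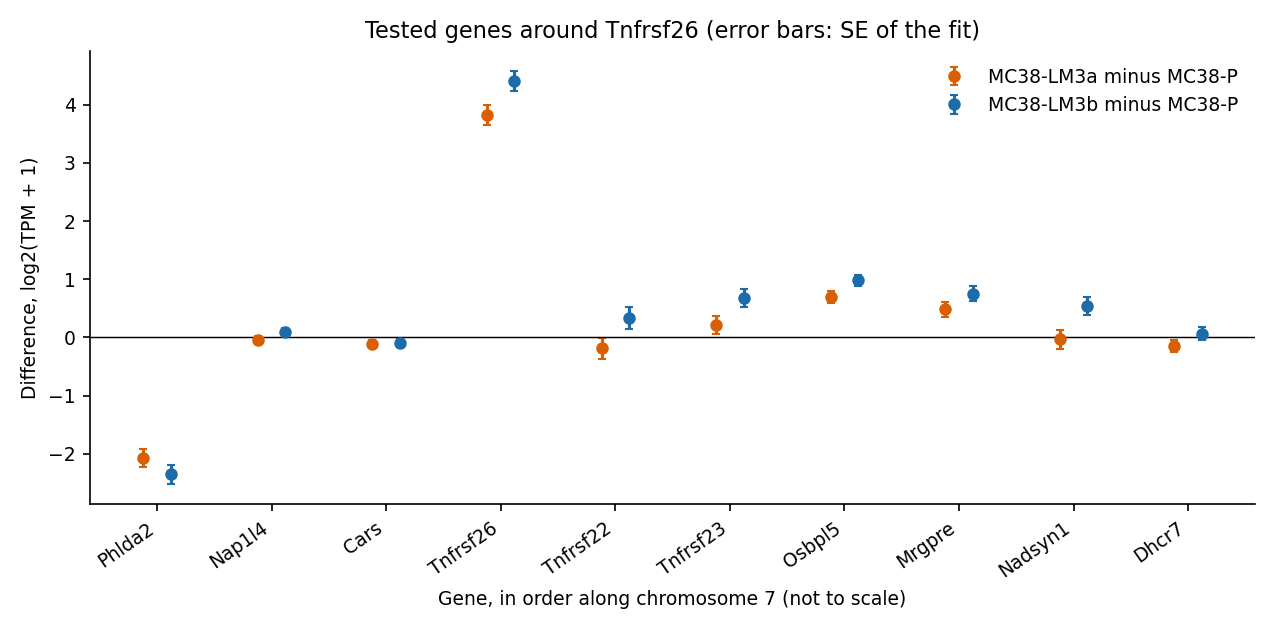
Differences from MC38-P on the log2(TPM + 1) scale (y axis) for Tnfrsf26 and its 9 fitted neighbours, in their RefSeq order along chromosome 7 and not to scale, for MC38-LM3a and MC38-LM3b; error bars are the SE of the fit. Tnfrsf26 (3.82 and 4.41) and Phlda2 (-2.07 and -2.35) stand apart from the other genes, which lie between -0.19 and 0.98.

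Over the 9 libraries, the level of Tnfrsf26 on the log2 scale had a Pearson correlation of 0.98 with that of Osbpl5 and -0.98 with that of Phlda2. Among the other members it was 0.81 for Ltbr, 0.73 for Tnfrsf23, 0.57 for Tnfrsf10b, 0.52 for Tnfrsf1a, 0.26 for Tnfrsf22, 0.22 for Tnfrsf1b and -0.06 for Tnfrsf12a. These values describe 9 libraries that fall into 3 lines, so any gene that differs between the parental line and both derivatives scores high, and Osbpl5 ranked 205 of 11286 genes by this measure.

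The 5 genes most like Tnfrsf26 over the 9 libraries, by the same correlation (0.997 to 0.999), were H2-Q4, Scn8a, Tinagl1, Tap2 and Ptpn7. They were chosen for this pattern, so their levels are given without a test. H2-Q4, a class I histocompatibility gene, went from 18.7 to 24.0 TPM in MC38-P to 89.5 to 104 TPM in MC38-LM3a and 114 to 118 TPM in MC38-LM3b. Tap2, a subunit of the transporter that loads class I molecules with peptide, went from 16.8 to 19.5 TPM to 48.7 to 54.7 and 61.1 to 66.4 TPM. Ptpn7, a tyrosine phosphatase best known from lymphoid cells, went from 1.67 to 2.41 TPM to 32.0 to 34.5 and 38.8 to 40.4 TPM. Scn8a, a voltage-gated sodium channel, went from 1.37 to 1.78 TPM to 9.78 to 11.3 and 12.9 to 13.0 TPM, and Tinagl1, a matrix protein, from 327 to 341 TPM to 494 to 512 and 522 to 538 TPM.

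The other genes of the pathway were taken from lists of 96 genes, of which 88 were listed in the files and 67 were fitted. In MC38-LM3a 13 were higher and 8 lower by the adjusted p-value alone, none of them a DEG by both thresholds, and in MC38-LM3b 38 were higher and 4 lower, with 4 DEGs. The shares of all tested genes were 14.1% higher, 13.8% lower and 2.89% DEGs for MC38-LM3a and 35.6%, 11.2% and 3.93% for MC38-LM3b, and the counts of each list below stand beside these same shares. The median difference of the 67 genes was 0.11 for MC38-LM3a and 0.37 for MC38-LM3b, beside -0.00 and 0.21 over all tested genes. After correction for length and GC content 28 were higher and 12 lower in MC38-LM3a and 32 and 12 in MC38-LM3b, with medians of 0.11 and 0.18, beside 26.5% and 24.6% of all tested genes for MC38-LM3a and 29.3% and 28.3% for MC38-LM3b. The MC38-LM3a counts turned to 15 higher and 26 lower without replicate 3 of both lines, beside 2059 and 5052 over all tested genes. With median centring 25 were higher and 13 lower in MC38-LM3b, beside 2586 and 2981 over all tested genes. Quantile normalization gave 28 and 12 there, beside 2928 and 2767. Against each other the derivatives differed in none of the 67 genes by limma with the adjusted p-value, 30 had an unadjusted p under 0.05, beside 38.1% of all tested genes, and 44 were called higher in MC38-LM3b without replicate 3 of MC38-LM3a, beside 52.2% of all genes tested in that fit.

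Of 18 other receptors, 15 were listed and 6 were fitted, and the remaining 9 stayed at or below 1.16 TPM in every library. Tnfrsf14 (HVEM), the receptor for LIGHT and a ligand of BTLA, was at 3.68, 3.38 and 2.66 TPM in MC38-P, at 6.04, 6.45 and 8.84 TPM in MC38-LM3a and at 11.7, 10.8 and 10.5 TPM in MC38-LM3b. It rose by 0.93 (limma, adjusted p = 0.00107) and 1.51 (adjusted p = 3.97e-05) without overlap between any lines. Tnfrsf4 (OX40), a costimulatory receptor known from T cells, fell from 7.28, 5.76 and 7.03 TPM to 3.64, 4.16 and 3.35 TPM and 3.54, 3.09 and 2.19 TPM, by 0.70 (adjusted p = 0.00587) and 0.97 (adjusted p = 0.000638). Eda2r, the receptor for ectodysplasin A2, rose by 0.38 (adjusted p = 0.0451) and 0.66 (adjusted p = 0.0022), and its MC38-LM3a call was lost in 8 of the 9 fits that left out a library, all except the one without MC38-LM3a replicate 1, at an adjusted p of up to 0.112. After correction its MC38-LM3b difference was 0.38, and without replicate 3 of both lines its MC38-LM3a difference was 0.15. Relt fell in MC38-LM3a (-0.38, adjusted p = 0.0252) and stood at -0.23 in MC38-LM3b (adjusted p = 0.105), and its MC38-LM3a call was lost without replicate 1 or 2 of MC38-P or replicate 1 of MC38-LM3a, at up to 0.101. After correction Relt was called lower in MC38-LM3b too (-0.38, adjusted p = 0.0103), as it was under median centring (-0.45, adjusted p = 0.0113). Cd40 and Tnfrsf9 rose in MC38-LM3b, by 0.24 (adjusted p = 0.0246) and 0.43 (adjusted p = 0.0281), and differed by 0.19 and 0.15 in MC38-LM3a (adjusted p = 0.0855 and 0.485). Over the alternatives the limma adjusted p of Cd40 in MC38-LM3a ran from 0.0187, where it was called, to 0.207. Neither MC38-LM3b call held after correction for length and GC content, and both were lost without replicate 2 or 3 of MC38-P and without MC38-LM3b replicate 2, at up to 0.113, Cd40 also without MC38-LM3b replicate 3 and Tnfrsf9 without replicate 1.

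Most ligands of the family were near 0 in these cells. Of 18 ligands 14 were listed, and 11 of these stayed at or below 0.60 TPM in every library. Tnfsf10 (TRAIL), the ligand that Tnfrsf10b, Tnfrsf22 and Tnfrsf23 bind, reached 0.12 to 0.24 TPM in MC38-P, 0.10 to 0.32 TPM in MC38-LM3a and 0.31 to 0.44 TPM in MC38-LM3b, and Fasl at most 0.05 TPM. The 3 fitted ligands had higher means in the derivatives. Tnfsf12 (TWEAK), the ligand of Tnfrsf12a, was at 4.05, 4.29 and 2.97 TPM in MC38-P, at 7.89, 6.75 and 7.64 TPM in MC38-LM3a and at 9.08, 9.50 and 7.83 TPM in MC38-LM3b. It rose by 0.83 (limma, adjusted p = 0.00123) and 1.05 (adjusted p = 0.00021), while its receptor, the most abundant member, stayed within 295 to 341 TPM. Tnfsf9 (4-1BB ligand) rose by 0.38 (adjusted p = 0.022) and 0.33 (adjusted p = 0.0274), and at least 1 of these calls was lost without replicate 1 or 3 of MC38-P, replicate 1 of MC38-LM3a or any replicate of MC38-LM3b, at up to 0.0893. The replicate block also took away both calls, the MC38-LM3a difference was 0.24 without replicate 3 of both lines, and under quantile normalization the Tnfsf9 difference for MC38-LM3b was 0.10 (adjusted p = 0.305). Tnfsf4 (OX40 ligand) rose in MC38-LM3b (0.66, adjusted p = 0.0361) from a parental level of 0.31 to 1.22 TPM, and was not called there after correction or without replicate 2 or 3 of MC38-P or replicate 1 or 2 of MC38-LM3b, at up to 0.126.

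Of the 20 fitted adaptors and ubiquitin enzymes, 2 rose and 3 fell in MC38-LM3a, and 9 rose and 2 fell in MC38-LM3b. After correction 8 were higher and 3 lower for MC38-LM3a and 7 and 3 for MC38-LM3b. Birc3, a ubiquitin ligase of TNF receptor complexes, was at 7.68 to 10.5 TPM in MC38-P, 12.8 to 15.6 TPM in MC38-LM3a and 14.9 to 16.4 TPM in MC38-LM3b, and rose by 0.53 (limma, adjusted p = 0.00981) and 0.71 (adjusted p = 0.00142), while its MC38-LM3a difference was 0.33 without replicate 3 of both lines. Otulin, which removes linear ubiquitin chains, fell from 79.7 to 84.5 TPM to 49.4 to 63.0 and 52.1 to 63.4 TPM, by 0.55 (adjusted p = 0.00205) and 0.51 (adjusted p = 0.00217). Traf1 rose by 0.33 (adjusted p = 0.0271) and 0.37 (adjusted p = 0.0108), and Traf4 fell by 0.31 (adjusted p = 0.0109) and 0.33 (adjusted p = 0.00546). The Traf1 rise in MC38-LM3b was 0.19 after correction and no longer called, and the Traf4 difference there was -0.50. Without 1 library, the Traf1 call for MC38-LM3a was lost in 5 of 9 fits (without MC38-P replicate 1 or 2, MC38-LM3a replicate 1, or MC38-LM3b replicate 2 or 3), at up to 0.0899, that for MC38-LM3b without MC38-LM3b replicate 2 (0.0517), and that of Traf4 for MC38-LM3a without MC38-P replicate 2 (0.0566).

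Of the 15 death signalling genes, 4 rose and 1 fell in MC38-LM3a, and 10 rose and 1 fell in MC38-LM3b. After correction 8 were higher and 1 lower for MC38-LM3a, and the MC38-LM3b counts were again 10 and 1. Casp6, an effector caspase, went from 17.9 to 21.2 TPM to 28.7 to 29.5 and 27.8 to 30.0 TPM and rose by 0.56 in both (limma, adjusted p = 0.000836 and 0.000594), or by 0.36 in MC38-LM3b after correction. Casp9, the initiator caspase of the apoptosome, rose by 0.41 (adjusted p = 0.0297) and 0.70 (adjusted p = 0.00129), and Ripk3, the kinase of necroptosis, by 0.34 (adjusted p = 0.0275) and 0.48 (adjusted p = 0.00306). The MC38-LM3a call of Casp9 was lost in 7 of the 9 fits that left out a library, all except those without MC38-P replicate 1 and MC38-LM3a replicate 2, at up to 0.0714, and that of Ripk3 without replicate 2 or 3 of MC38-P or replicate 1 of MC38-LM3a, at up to 0.106. With median centring the Ripk3 difference for MC38-LM3b was 0.26, still called. Without replicate 3 of both lines the Casp9 difference for MC38-LM3a was 0.21. Cycs, cytochrome c, fell by 0.33 (adjusted p = 0.00464) and 0.29 (adjusted p = 0.00614). The MC38-LM3a call of Cycs was lost under median centring (adjusted p = 0.0616), and its MC38-LM3b difference was -0.54 after correction. Cflar, which encodes the caspase-8 inhibitor c-FLIP and is named here after its values were seen, was at 16.9, 13.2 and 10.5 TPM in MC38-P, at 15.7, 17.3 and 24.3 TPM in MC38-LM3a and at 30.1, 29.9 and 28.7 TPM in MC38-LM3b. It was a DEG in MC38-LM3b (1.10, adjusted p = 0.000779), though its difference there was 0.83 after correction and 0.94 without MC38-P replicate 3, below the fold threshold. Cflar was not called in MC38-LM3a (0.47, adjusted p = 0.0723), where the difference was 0.52 and called after correction, 0.63 and called without MC38-P replicate 1 (adjusted p = 0.0259), and 0.14 without replicate 3 of both lines.

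Of the 19 kinases and NF-kB genes, 3 rose and 2 fell in MC38-LM3a and 10 rose in MC38-LM3b. After correction 7 were higher and 6 lower for MC38-LM3a and 9 and 6 for MC38-LM3b. The genes called higher in both derivatives were Ikbke, Tank and Tbk1, the IKK-related kinases and their adaptor. Ikbke was at 3.57, 4.01 and 2.86 TPM in MC38-P, at 5.88, 6.66 and 9.39 TPM in MC38-LM3a and at 10.7, 10.6 and 10.1 TPM in MC38-LM3b, and rose by 0.88 (limma, adjusted p = 0.00229) and 1.36 (adjusted p = 0.000111). Tank rose by 0.46 (adjusted p = 0.0203) and 0.77 (adjusted p = 0.000875), and Tbk1 by 0.37 (adjusted p = 0.0278) and 0.61 (adjusted p = 0.00147). The MC38-LM3a call of Tank was lost without MC38-P replicate 2 or MC38-LM3a replicate 1, at up to 0.0633, and that of Tbk1 without replicate 2 or 3 of MC38-P, at up to 0.0788. After correction the MC38-LM3b differences were 0.50 for Tank and 0.40 for Tbk1, and without replicate 3 of both lines the MC38-LM3a differences were 0.25 and 0.17. Of the 4 fitted shedding genes, none was called in MC38-LM3a, where none had an unadjusted p under 0.05, and 2 rose in MC38-LM3b. After correction 1 of them, Rhbdf2, an inactive rhomboid named here after its values were seen, was higher in MC38-LM3a (0.31, adjusted p = 0.000134). The DEGs among the 67 pathway genes in MC38-LM3b were Tnfrsf14, Tnfsf12, Cflar and Ikbke. Tnfrsf14 and Ikbke stayed above a difference of 1 in every alternative, whereas Tnfsf12, like Cflar, fell below it, to 0.92 without MC38-P replicate 3 and 0.79 with quantile normalization.

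**Figure D5:**
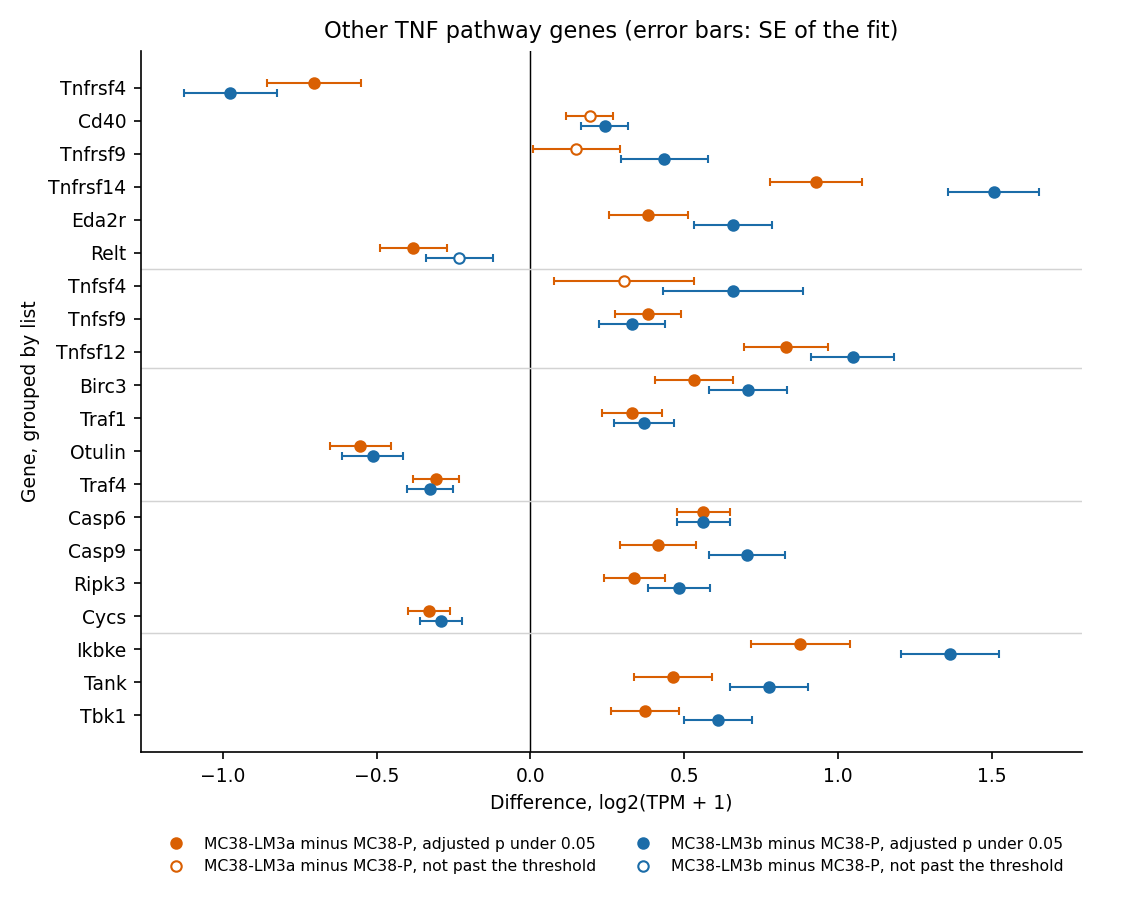
Differences from MC38-P on the log2(TPM + 1) scale (x axis) of the named receptors, ligands, adaptors, death genes and kinases outside the 10 members, for MC38-LM3a and MC38-LM3b; filled points have an adjusted p under 0.05, open points do not, error bars are the SE of the fit, and grey lines part the lists. Tnfrsf14 reaches 0.93 and 1.51 and Ikbke 0.88 and 1.36, and Tnfrsf4 lies lowest at -0.70 and -0.97.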

How the data were processed

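The authors deposited TPM values, rounded to 2 decimals, 1 table for each of the 9 libraries, for 16399 genes with their symbols and NCBI Gene numbers. The submitters' processing notes name HISAT and the GRCm39 build; the quantification tool and annotation are not given in the sources used here, and neither is the use of strand. The count-based test of the study could not be run; as the files hold no counts, depth per library is unknown and no counting intervals are given. TPM scaling gives all libraries the same sum.

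The fit used limma 3.58.1 (R 4.3.3) and the log2 of TPM + 1 for the 11287 genes that reached 1 TPM in 3 or more libraries, with 1 mean per line over all 9 libraries, a trended prior variance and Benjamini-Hochberg adjustment over all tested genes. For the corrected values, the difference of each library from the gene mean over all 9 libraries was fitted by loess (span 0.3). The fit was on length and GC content of the longest GENCODE M21 transcript, available for 11096 genes. Its prediction was subtracted from the library, which also centres each library. Differences between lines that follow length or GC content are removed as well. Cluster sequences were read from GENCODE M21 with Biopython. Matching by the NCBI Gene number gave the RefSeq order of the neighbours.

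The members and gene lists were chosen with earlier results of these data known. Named outside the members were every fitted receptor or ligand of the lists, up to 3 genes per list and direction called in both derivatives, the 5 genes most correlated with Tnfrsf26, and fitted genes within 500 kb. The procedure was tested on simulated data. Alternatives changed the pseudocount, filter, libraries, scaling, variance trend, and a replicate block. In 0 of 9 pairs did libraries with the same number in different lines deviate together (r from -0.66 to 0.07, over 0.1 required), so the numbers were not taken as pairs. After correction for length and GC content r ran from -0.48 to 0.11, with replicate 1 of MC38-LM3a and of MC38-LM3b over 0.1. The drift along length enters the uncorrected r, so the check does not exclude pairing.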

Additional observations from a re-analysis of the deposited data

Results flagged for a closer look

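Dhcr7, which lies near the receptor cluster and makes cholesterol in its last step, was the single named gene whose libraries moved in opposite directions in the derivatives. Its mean difference from MC38-P on the log2 scale was -0.15 in MC38-LM3a, with all 3 libraries below the parental mean, and 0.06 in MC38-LM3b, with all 3 above it. The direct comparison of MC38-LM3b with MC38-LM3a gave a difference of 0.21 that did not pass the threshold (limma, adjusted p = 0.168). The MC38-LM3b libraries (51.1 to 54.4 TPM) all lay within the MC38-P range (41.7 to 57.1 TPM). The MC38-LM3b difference turned to -0.06 without MC38-P replicate 3, to -0.09 after correction for length and GC content, to -0.13 with quantile normalization and to -0.16 with median centring, where it passed the threshold (adjusted p = 0.0499), so the opposite directions did not hold in these fits.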

How the results depend on the processing

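No alternative turned the direction of Tnfrsf26 against MC38-P, which stayed between 3.49 and 4.37 for MC38-LM3a and between 4.18 and 4.96 for MC38-LM3b over 19 alternatives, including 2 added after the data were seen (without replicate 3 of MC38-P and of MC38-LM3a together, and the length and GC correction with the replicate block). Signs of members against MC38-P changed in 11 of 152 fits for MC38-LM3a and in 6 of 152 for MC38-LM3b, all in members whose main difference was 0.22 or smaller, and Tnfrsf12a changed sign against MC38-LM3a under median centring (-0.13). Of 19 named pathway genes and neighbours called in both derivatives, 9 kept both calls in every alternative. The others lost calls in 13 (Tnfsf9), 12 (Traf1), 11 (Eda2r), 9 (Casp9), 4 (Ripk3, Tank and Tbk1 each), 2 (Traf4 and Mrgpre each) or 1 (Cycs) of 38 fits each. Dhcr7 turned direction against MC38-P in MC38-LM3b under median centring (-0.16, adjusted p = 0.0499), quantile normalization (-0.13), length and GC correction (-0.09, also with the replicate block), and without MC38-P replicate 3 or replicate 3 of both lines (-0.06). Low values, whose depth is unknown, limit Fas and Tnfrsf21.

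DEG counts were 326 for MC38-LM3a, 444 for MC38-LM3b and 3 between the derivatives. A pseudocount of 0.1 gave 550 and 705. Leaving out 1 replicate at a time gave 286 to 349, 358 to 507, and 0 to 19 between the derivatives, and leaving out replicate 3 of MC38-P and of MC38-LM3a together gave 20 between them. By the adjusted p-value alone, the 3160 calls for MC38-LM3a were 2105 with only both groups in the model, 5669 after length and GC correction, 5262 with the replicate block added to that correction, 7111 without replicate 3 of both lines, and 2083 (without MC38-P replicate 2) to 4211 leaving out 1 replicate. For MC38-LM3b the split of 4013 higher and 1263 lower became 3250 and 3140 after length and GC correction, 2586 and 2981 with median centring and 2928 and 2767 with quantile normalization. For MC38-LM3a without replicate 3 of both lines it moved from 1597 and 1563 to 2059 and 5052. Between the derivatives the 6 calls were 2 with a pseudocount of 0.1, 3 with only both groups, 12 with median centring, 10 with quantile normalization, 23 after length and GC correction, 8025 without replicate 3 of both lines, and 0 to 6351 leaving out 1 replicate. Of the pathway genes, the 21 calls for MC38-LM3a were 12 with only both groups, 36 with median centring, 38 with quantile normalization, 40 after length and GC correction, 38 with the replicate block added, 41 without replicate 3 of both lines and 13 to 23 leaving out 1 replicate. Their split of 13 higher and 8 lower turned to 15 and 26 without replicate 3 of both lines. It was 8 and 10 without MC38-P replicate 3 and 11 and 12 without MC38-LM3a replicate 3. It was 26 and 10 with median centring, 26 and 12 with quantile normalization and 28 and 12 after correction. For MC38-LM3b the pathway split of 38 and 4 was 25 and 13 with median centring and 28 and 12 with quantile normalization. Between the derivatives the 0 pathway calls were 48 without replicate 3 of both lines and 0 to 44 leaving out 1 replicate. The cause of these shifts was not tested.

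The replicate block gave 322, 444 and 2 DEGs in the 3 comparisons, and 2200, 3891 and 2 calls by the adjusted p-value. As the numbers were not taken as pairs, no further reading is drawn from it.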
